A study of Nicotiana tabacum with 12 samples.

Results

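Non-induced tobacco seedlings (Nicotiana tabacum, cultivar Petit Havana, SR1) were compared between day 7 and day 9 of age, by sequencing of polyadenylated RNA from their aerial parts. The comparison holds 5 distinct libraries of the 11 in the series, 3 from 7-day-old and 2 from 9-day-old seedlings. It covers the 42028 genes listed in the deposited tables of both ages, of which 41755 passed a lenient filter on level and were tested. The study asked what an inducible MIXTA gene of snapdragon, which encodes an R2R3-MYB transcription factor of epidermal cells, does to tobacco seedlings. T2 seedlings of stably transformed plants were grown on Murashige and Skoog agar with sucrose under 16 h of light and 8 h of dark, and were left untreated or given β-estradiol. Aerial parts of 15 seedlings were collected for each library, 4 h and 48 h after induction, and the non-induced plates were collected at the same times, when the seedlings were 7 and 9 days old. Both non-induced groups therefore carry the same transgene system as the induced plants, without its inducer, and differ from each other in age. The labels give the hours since induction but not the hour of the day, so age and hour of collection cannot be told apart in any result below.

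In the days after germination a tobacco seedling consists above ground of a short stem, a pair of cotyledons and the shoot apex. The cotyledons first feed on seed reserves, turn green and become photosynthetic organs, and the first true leaves then emerge. Light-harvesting proteins, enzymes of carbon fixation and the pigments chlorophyll and carotenoid are made partly from nuclear genes and partly from the plastid genome.

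The deposited values were normalised read counts that could be turned back into whole reads, from 1609263 to 34413417 per library at day 7 and from 1274469 to 44946993 at day 9. After genes listed at 1 age alone and a few genes with inflated entries were left out, 886919 to 26258309 reads per library remained at day 7 and 1238170 to 13765705 at day 9. Replicate 1 was the shallow library at both ages, where 1 read was worth 1.07 CPM (counts-per-million) at day 7 and 0.793 CPM at day 9, against 0.0386 to 0.0747 CPM in the other 3. The submitters' stated minimum for every sample was far above either of these totals. The day 9 columns of replicates 2 and 3 held identical values for 42028 of 42028 genes and were counted as 1 library, so day 9 has n = 2. Each library pooled seedlings, and nothing states that replicates came from separate experiments, so the spread between libraries may be technical. The p-values and SE rest on the spread within all 4 groups of the series together, induced libraries included, and not on these 5 libraries alone. Nuclear photosynthesis genes summed to 30508 to 35496 CPM at day 7 and to 37529 to 39751 CPM at day 9 in the same libraries. The 5 root markers named by a RefSeq symbol summed to 27.8 to 35.7 CPM at day 7 and 27.0 to 31.7 CPM at day 9, which overlap. In such bulk samples, fewer cells of a type and less RNA per cell cannot be told apart.

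Of the 41755 genes tested, 5020 differed between the ages (12% of genes, limma with Benjamini-Hochberg adjusted p under 0.05). They divided into 2340 genes that were higher at day 9 (5.6%) and 2680 that were lower (6.42%). Most changes were small: the median log2 change was 0.82 among the genes that were higher and -0.78 among those that were lower, and 3405 of the 5020 changed by less than 1 on the log2 scale. The 5 libraries did not overlap between the ages in 7683 genes upward (18.4%) and 8683 downward (20.8%). A called change of at least 1 was seen in 822 genes upward (1.97%) and 793 downward (1.9%). Over all tested genes the median log2 change was -0.01. The share called rose with the level of the gene, from 1.9% higher and 0.892% lower below a mean of 2 CPM to 19.4% higher and 11.8% lower above 100 CPM. Long noncoding RNAs were called higher in 71 and lower in 159 of 2729, against 2090 and 2244 of 33524 protein-coding genes. Leaving out either day 9 library leaves 1 library at that age, which the model then takes to vary like the libraries of the other groups; this holds for every such value below. The count was lowest, at 1082, with the reads of every library thinned to the total of the smallest. Among the fits that left out 1 library it was lowest without day 9 replicate 2, the deep day 9 library. DESeq2 called 2724 genes where edgeR called 4511. On the scale of the deposited tables, which the authors normalised separately, 420 genes were higher and 31435 lower, with a median log2 change of -0.80; centred on that median, 5563 genes were called.

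**Figure D1:**
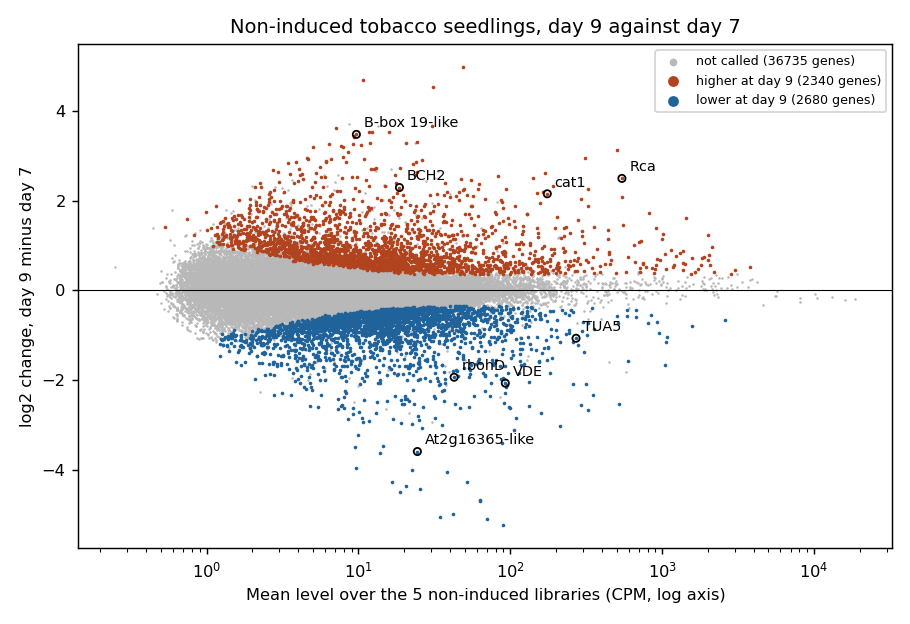
Change between day 7 and day 9 in non-induced seedlings against the mean level over the 5 libraries (CPM, log axis), 1 point per tested gene. The 2340 genes called higher are in orange and the 2680 called lower in blue; circled genes are named in the text, Rca and cat1 among the abundant genes that were higher and the At2g16365-like gene among those with the largest falls.

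Only 1390 of the 42028 genes had a usable name, 999 from a RefSeq symbol and the rest from annotations that the authors deposited with their tables of genes higher in induced seedlings. That second source was chosen on these same libraries. The 4 h table lists genes higher in induced than in non-induced seedlings at day 7, and the 48 h table does so for day 9. Low non-induced values at day 7 favour a rise in this comparison, and low values at day 9 favour a fall. Of the 287 tested genes named solely by the 48 h table, 21 were higher and 49 lower at day 9, and of the 99 named solely by the 4 h table, 20 were higher and 9 lower. Among the 996 tested genes with a RefSeq symbol, 102 were higher (10.2%) and 80 lower (8.03%). The counts for each list below take in genes named from either source. A gene named from the authors' tables is marked as such where it is described singly. Of the falls in the mitotic, vascular and senescence lists, 1 in each was named from the authors' tables. Tobacco is an allotetraploid, and reads of near-identical copies may have been divided between them in counting, so values of paired copies are uncertain. Genes beyond the largest changes and the leading members of each list were picked for description after their values had been seen. The rule for the largest named changes required no overlap between the ages, so lack of overlap adds no support for them.

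Genes of photosynthesis that changed were higher at day 9. Of 23 nuclear photosynthesis genes tested, 6 rose and none fell, beside 5.6% and 6.42% of all genes, and their median log2 change was 0.17. The largest rise was in Rca, rubisco activase, the chaperone that frees rubisco from bound sugar phosphates. The copy LOC107819807 stood at 192, 127 and 250.3 CPM in the day 7 libraries and at 792 and 1350.4 CPM at day 9. The groups did not overlap, and the mean was 5.64-fold higher at day 9 (log2 change 2.50 ± 0.42 SE, limma adjusted p = 0.0081), although with day 9 replicate 2 left out the adjusted p was 0.079. The second copy, LOC107798594, rose from 1219, 1201 and 1499 CPM to 2815 and 3311 CPM (log2 change 1.23 ± 0.15, limma adjusted p = 1.9e-06). Its call held with each of the 5 libraries left out in turn.

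Lhcb6, which encodes the minor antenna protein CP24 of photosystem II, stood at 909, 855 and 1118 CPM at day 7 and at 1588 and 1674 CPM at day 9 (log2 change 0.77 ± 0.13, limma adjusted p = 0.00012). GAPB, a subunit of the chloroplast glyceraldehyde-3-phosphate dehydrogenase, rose by 0.75 on the log2 scale. The other genes that rose were copies of the oxygen-evolving complex protein PsbP, oee2-B by 0.63 and PSBP1 by 0.52. The abundant antenna and oxygen-evolving genes differed little: Lhcb4 changed by 0.18, Lhcb5 by 0.08, CAB21 by 0.19 and PsbO by 0.06, none of them called. The smallest and largest changes among the 17 members not called were -0.07 and 0.42. With day 9 replicate 2 left out, 3 of the 6 were called, the exceptions being LOC107819807, GAPB (adjusted p = 0.075) and PSBP1 (adjusted p = 0.072).

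Pigment genes changed in both directions. Of 23 genes of chlorophyll and carotenoid synthesis, 8 rose and 2 fell (5.6% and 6.42% of all genes), with a median log2 change of 0.23. The carotenoid branch held the largest rises. Carotenoids are built from phytoene, which phytoene synthase makes, and β-carotene is then hydroxylated to zeaxanthin by carotene hydroxylases. The hydroxylase gene BCH2 (LOC107822278) stood at 7.48, 7.53 and 5.94 CPM at day 7 and at 35.7 and 36.4 CPM at day 9, a 5.16-fold difference (log2 change 2.29 ± 0.14, limma adjusted p = 4.1e-11). Its partner CrtR-b1 (LOC107809222) went from 15.0, 16.3 and 14.5 CPM to 65.0 and 79.7 CPM (log2 change 2.2 ± 0.19, limma adjusted p = 4.1e-07). In neither gene did the 2 ages overlap, a condition of the rule that named them.

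Both phytoene synthase genes were higher at day 9. PSY2 (LOC107818367) held 6.41, 7.34 and 6.71 CPM at day 7 and 23.0 and 46 CPM at day 9, where the replicates themselves differed (log2 change 2.18 ± 0.30, limma adjusted p = 0.00084). The more abundant psy-1 (LOC107772713) rose from 75.9, 88.1 and 91.2 CPM to 171 and 176 CPM (log2 change 1.03 ± 0.12, limma adjusted p = 1.8e-06). OR, which in Arabidopsis stabilises phytoene synthase, rose by 0.56. A gene described in the authors' 4 h table as ABA DEFICIENT 4-like (LOC107812708), whose Arabidopsis namesake is needed to make neoxanthin, stood at 24.6, 24.2 and 30.1 CPM and then at 98.3 and 97.1 CPM (log2 change 1.88 ± 0.15, limma adjusted p = 4.3e-09). The middle of the pathway did not pass the test: ZDS, the ζ-carotene desaturase, changed by -0.04, the ε-cyclase LYCe by 0.25 and the β-cyclase CrtL-1 by -0.31.

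The largest fall among the pigment genes was in VDE (LOC107763628), violaxanthin de-epoxidase, the thylakoid lumen enzyme that returns violaxanthin to zeaxanthin in strong light. It stood at 123, 140.2 and 137 CPM at day 7 and at 31.7 and 30.9 CPM at day 9, a 4.26-fold lower mean (log2 change -2.07 ± 0.12, limma adjusted p = 3.2e-11). Every day 9 value lay below every day 7 value, as the rule that named it required. Chlorophyll genes divided. The reductase gene chlP, which supplies the phytol tail, rose from 417, 505 and 585 CPM to 1018 and 1115 CPM (log2 change 1.1 ± 0.14, limma adjusted p = 3e-06). Protochlorophyllide oxidoreductases, which need light to act, went opposite ways: POR1 (LOC107820326) fell from 847, 999.7 and 1046 CPM to 588 and 577 CPM, while POR2 (LOC107795891) rose from 213, 293 and 262 CPM to 375 and 436 CPM. The log2 changes were -0.72 ± 0.13 for POR1 (limma adjusted p = 0.00027) and 0.67 ± 0.14 for POR2 (limma adjusted p = 0.0014). The POR2 call was lost without day 9 replicate 2 (adjusted p = 0.067). DCUP, a decarboxylase of the early tetrapyrrole pathway, rose by 0.43 and lost its call without day 7 replicate 1 (adjusted p = 0.082), day 7 replicate 2 (adjusted p = 0.086) or day 9 replicate 2 (adjusted p = 0.24).

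**Figure D2:**
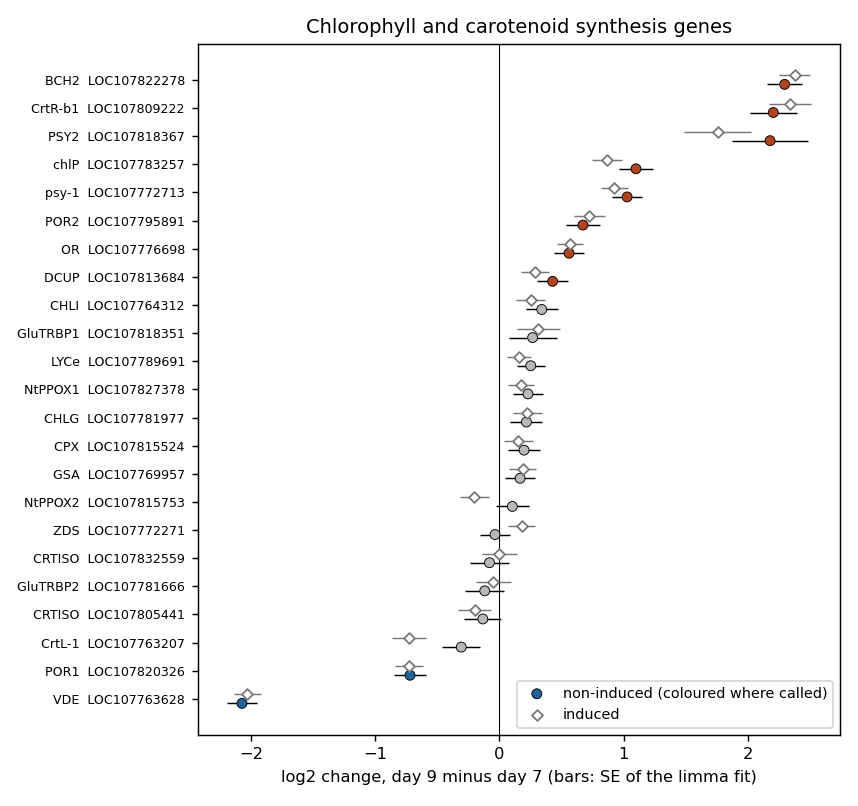
Log2 change between day 7 and day 9 (bars are the SE of the limma fit) of the 23 chlorophyll and carotenoid synthesis genes, with non-induced seedlings as circles, orange or blue where called higher or lower, and induced seedlings as diamonds. BCH2, CrtR-b1 and PSY2 lie above 2 in the non-induced seedlings and VDE at -2.07, while most of the other genes lie near 0.

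Some nuclear genes for transcription of organelle genomes, picked after their values had been seen, changed in opposite directions. sigA2 (LOC107790547), a sigma factor that directs the bacterial-type plastid RNA polymerase to promoters, held 31.0, 36.7 and 49.0 CPM at day 7 and 154 and 160.4 CPM at day 9 (log2 change 2.03 ± 0.17, limma adjusted p = 9.5e-08). The phage-type polymerase gene rpoT3-tom (LOC107783504), of the kind that transcribes plastid housekeeping genes, went the other way, from 18.2, 22.2 and 19.3 CPM to 7.93 and 5.45 CPM (log2 change -1.52 ± 0.17, limma adjusted p = 4.6e-07). Both were separated by age, as the rule that named them required. The related rpoT1-tom (LOC107784816) and rpoT2-tom (LOC107765810) fell by 0.76 and 0.75. Of 67 genes encoded in the plastid, 1 rose and 3 fell, beside 5.6% and 6.42% of all genes, with a median log2 change of 0.02, and their summed share of reads was 6.80% to 7.66% at day 7 and 5.81% to 6.75% at day 9. The libraries were made from polyadenylated RNA, which captures plastid transcripts unevenly. rbcL, the large subunit of rubisco, changed by -0.15 ± 0.20 and psbA, the D1 protein of photosystem II, by 0.20 ± 0.28, neither called. The count of plastid genes that fell was 1 without day 7 replicate 1 or day 9 replicate 1, and the count that rose was 0 without day 7 replicate 1 or 3 or day 9 replicate 2 and 3 without day 9 replicate 1. Of 40 mitochondrion-encoded genes, limma called none, and 3 higher without day 9 replicate 1. At an unadjusted p under 0.05 there were 3 of the 40, and edgeR called 2 after adjustment.

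Division genes of the plastid were lower at day 9. FtsZ proteins form the ring inside the chloroplast where it divides, and 3 of 4 ftsZ genes fell, beside 6.42% of all genes. LOC107824421 went from 38.5, 38.6 and 46.5 CPM to 21.4 and 21.7 CPM (log2 change -0.92 ± 0.13, limma adjusted p = 2.5e-05). LOC107777306 went from 24.6, 31.3 and 28.2 CPM to 15.9 and 14.4 CPM (log2 change -0.86 ± 0.14, limma adjusted p = 8.8e-05), and LOC107826864 fell by 0.57. All 3 calls held with each library left out in turn. The 7 nuclear genes for proteins of the plastid ribosome changed by -0.10 to 0.10, and none was called.

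Of 4 catalase genes, 3 rose. Catalase destroys the hydrogen peroxide that photorespiration and fatty acid breakdown make in peroxisomes. Of the 2 cat1 copies, LOC107799583 went from 54.5, 64.6 and 82.2 CPM to 247 and 369 CPM (log2 change 2.18 ± 0.26, limma adjusted p = 0.0003). Its copy LOC107828252 went from 66.3, 67.0 and 85.5 CPM to 277 and 379 CPM (log2 change 2.15 ± 0.17, limma adjusted p = 7.8e-08). For each copy, both day 9 values lay above all day 7 values, a condition of the rule that named it. The more abundant CAT-1 (LOC107786140), at a mean of 255 CPM at day 7, changed by -0.10 and was not called. The catalase cat3 rose by 0.81, a call lost without any of day 7 replicates 1, 2 and 3 or day 9 replicate 2 (adjusted p = 0.062, 0.07, 0.053 and 0.27). Together with peroxidase PER9-6, these were the 4 members that rose of 14 glutathione transferases, peroxidases and catalases, and none fell, beside 5.6% and 6.42% of all genes. PER9-6 rose by 0.57 and lost its call without day 7 replicate 1 (adjusted p = 0.13) or day 9 replicate 2 (adjusted p = 0.47); the count of 4 was 2 without either of these libraries, and 1 member was called lower without day 7 replicate 2.

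**Figure D3:**
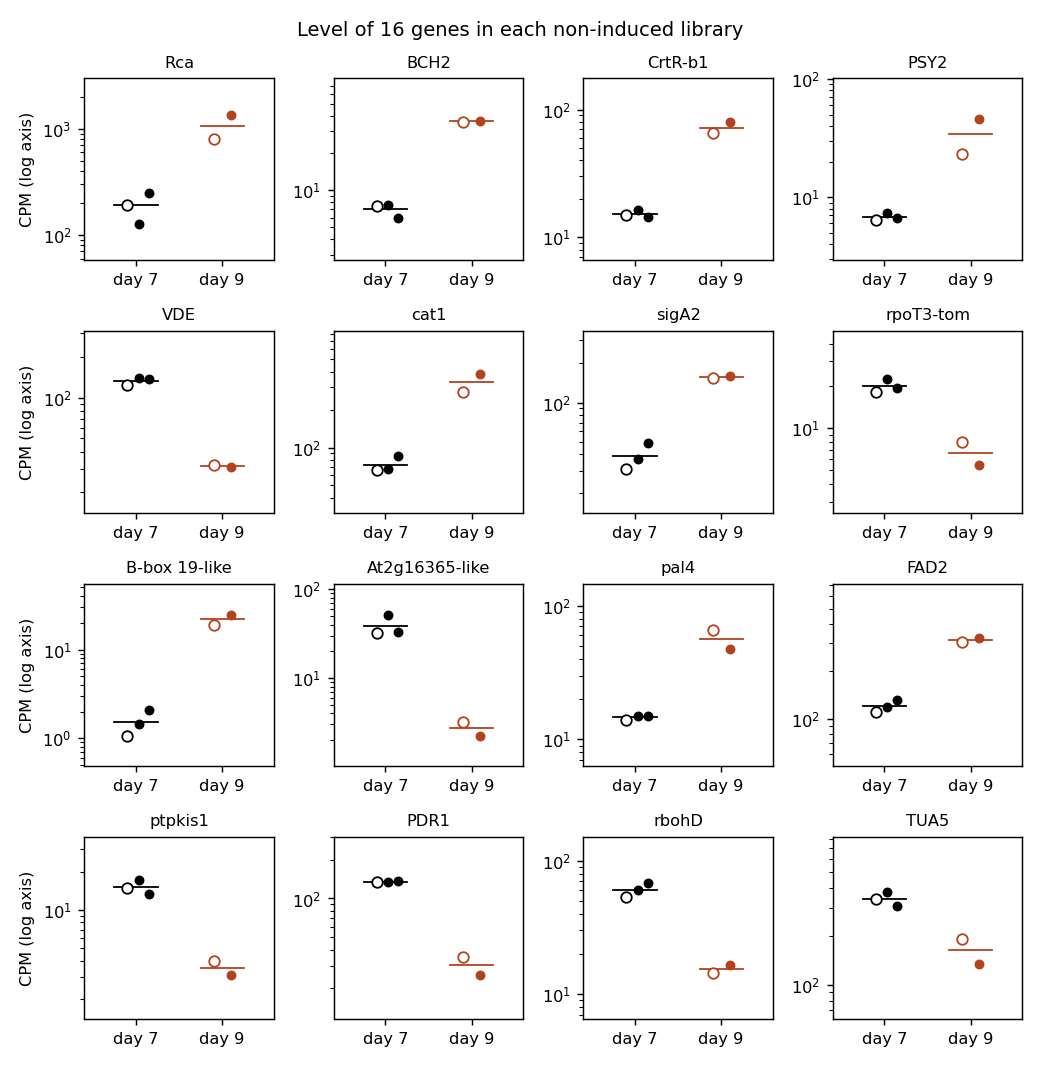
Level (CPM, log axis, each panel with its own range) of 16 genes in every non-induced library, with day 7 in black and day 9 in orange, open circles for the shallow replicate 1 of each age, and a line at the mean of each age. The 2 ages are separate in all 16 panels, which was a condition of the rule for the largest named changes. The open circles lie with the filled ones of their age.

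Genes of clock and light signalling changed in both directions. Transcripts of such genes follow the hour of the day, which the labels do not give. Of 7 tested, 4 rose and 1 fell (5.6% and 6.42% of all genes), 4 of these 5 being named from the authors' tables. The B-box zinc finger protein 19-like gene LOC107807066, of a family that acts in light signalling and flowering in Arabidopsis, had 1.07, 1.45 and 2.08 CPM at day 7 and 19 and 24.8 CPM at day 9. That was a 14.3-fold difference, the largest rise of any gene with a name (log2 change 3.48 ± 0.21, limma adjusted p = 3.3e-11). Its name comes from the authors' 4 h table, which lists genes higher in induced seedlings than in these same day 7 libraries. In the shallow day 7 library its value corresponds to 1 read. GIGANTEA-like LOC107786518, named for a clock protein that peaks late in the day in Arabidopsis, went from 4.28, 3.86 and 3.51 CPM to 0.793 and 0.597 CPM (log2 change -1.88 ± 0.28, limma adjusted p = 3.5e-05). In the shallow day 9 library its value corresponds to 1 read, and the gene is a pseudogene by its biotype. The name GIGANTEA-like comes from the authors' 48 h table, which lists genes higher in induced seedlings than in these same day 9 libraries. The red-light receptor gene phyB rose by 0.59, with its call lost without day 9 replicate 1 (adjusted p = 0.059) or replicate 2 (adjusted p = 0.066). CONSTANS-LIKE 2-like rose by 0.97, a call lost without day 9 replicate 1 (adjusted p = 0.065). REVEILLE 3-like rose by 0.96, a call lost without day 7 replicate 1 (adjusted p = 0.07) or day 9 replicate 2 (adjusted p = 0.16). Without day 9 replicate 1 or without day 9 replicate 2, 2 members of the list were called higher in place of 4, and without replicate 1 of both ages it was 1.

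A pair of genes described as F-box protein At2g16365-like fell more than any other named gene. The Arabidopsis gene of that number encodes PCH1, a protein that binds the light receptor phytochrome B. LOC107768020 stood at 32.1, 51.8 and 32.8 CPM at day 7 and at 3.17 and 2.24 CPM at day 9, a 14.4-fold difference (log2 change -3.60 ± 0.30, limma adjusted p = 1.9e-05). LOC107808647 stood at 15.0, 19.1 and 15.6 CPM and then at 2.38 and 1.19 CPM (log2 change -2.94 ± 0.21, limma adjusted p = 6.2e-10). Both names come from the authors' 4 h table, which lists genes higher in induced seedlings than in these same day 7 controls.

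The phenylpropanoid pathway, which turns phenylalanine into lignin precursors, chlorogenic acid and flavonoids, had higher transcripts at day 9 for several of its enzymes. Of 30 genes of the list, 11 rose and none fell, beside 5.6% and 6.42% of all genes, and the median log2 change was 0.45. All 11 have RefSeq symbols. The 4 members that encode phenylalanine ammonia-lyase, the first enzyme, all rose. pal4 (LOC107769293) went from 13.9, 14.9 and 15.1 CPM to 65.8 and 47.0 CPM (log2 change 1.89 ± 0.16, limma adjusted p = 6.9e-09). palB (LOC107761482) went from 9.62, 8.55 and 10.4 CPM to 27.8 and 23.7 CPM (log2 change 1.39 ± 0.16, limma adjusted p = 6.8e-07), and NtPAL and palA rose by 0.89 and 0.65. Day 9 exceeded day 7 in every library for each of the 4, as in 18.4% of all genes. For pal4 and palB this was a condition of the rule that named them.

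Further down the pathway, both genes for cinnamate 4-hydroxylase, CYP73A47v3 and CYP73A47v1, rose by 0.86 and 0.61, and 4CL1, a 4-coumarate-CoA ligase, by 0.77. The more abundant ligase gene 4CL2 (LOC107797004) had a mean of 32.3 CPM at day 7 and 28.5 CPM at day 9, a log2 change of -0.19 that was not called. CYP98A33v1 (LOC107824233), a hydroxylase on the way to chlorogenic acid and lignin, went from 5.35, 4.97 and 4.51 CPM to 12.7 and 17.9 CPM (log2 change 1.52 ± 0.19, limma adjusted p = 2.2e-06). CAD14 and CAD19, of the cinnamyl alcohol dehydrogenases that end the monolignol branch, rose by 0.86 and 0.83. Among the flavonoid genes, NtFLS, flavonol synthase, rose from 1.07, 0.725 and 0.965 CPM to 3.17 and 3.51 CPM (log2 change 1.44 ± 0.32, limma adjusted p = 0.0027). Its value in the shallow day 7 library corresponds to 1 read. Genes for the anthocyanin branch and for caffeoyl-CoA methylation had low values and were not called, ANS2 changing by 0.20 and F3'5'H by 0.23. The count of 11 stood unchanged without replicate 1 of both ages and fell to 6 without day 9 replicate 2. The calls lost there were those of palA, both CYP73A47 genes, 4CL1 and NtFLS, with adjusted p between 0.0501 and 0.41. CYP73A47v1 also lost its call without day 7 replicate 1 (adjusted p = 0.07), and 4CL1 without day 7 replicate 1 or 2 (adjusted p = 0.088 and 0.12).

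Genes of lipid and isoprenoid synthesis that changed were higher at day 9. FAD2 (LOC107823061), the desaturase that makes linoleic acid in the endoplasmic reticulum, went from 110.1, 119 and 132 CPM to 305 and 324 CPM (log2 change 1.38 ± 0.12, limma adjusted p = 9.1e-09). NtFAD7 (LOC107783156), which makes trienoic fatty acids in the plastid, went from 68.4, 93.5 and 81.6 CPM to 163 and 166 CPM (log2 change 1.03 ± 0.13, limma adjusted p = 5e-06). With NtACC, an acetyl-CoA carboxylase, they were the 3 that rose of 7 lipid synthesis genes, and none fell, beside 5.6% and 6.42% of all genes. NtACC rose by 0.52 and lost its call without day 7 replicate 1 or 2 or day 9 replicate 1 or 2 (adjusted p = 0.097, 0.11, 0.092 and 0.2).

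The enzyme 1-deoxy-D-xylulose 5-phosphate synthase opens the plastid route to isoprenoids, from which carotenoids and the phytol tail of chlorophyll derive. Its gene dxs rose in both abundant copies. LOC107818796 went from 172, 223 and 246 CPM to 441 and 436 CPM (log2 change 1.05 ± 0.13, limma adjusted p = 2.8e-06), and LOC107790348 from 131, 149 and 163 CPM to 266 and 263 CPM (log2 change 0.84 ± 0.12, limma adjusted p = 1.5e-05). These 2 and HMGR1, of the cytosolic route, were the 3 members that rose of 15 terpenoid genes, beside 5.6% of all genes, and none fell, with 1 fall called without day 7 replicate 3. HMGR1 rose by 0.55, a call kept only when the library left out was day 7 replicate 2. The next plastid step, DXR, changed by -0.14 and the last, ISPH, by 0.11, neither called. PDR1 (LOC107799533), an ABC transporter known in tobacco for exporting diterpenes, held 135, 135 and 137 CPM at day 7 and 34.9 and 25.4 CPM at day 9. Its mean was 4.50-fold lower (log2 change -2.17 ± 0.27, limma adjusted p = 0.00057). The trichome diterpene synthase gene abs changed by 0.39 and was not called.

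Among sugar genes, some sugar kinases were lower and 1 sucrose synthesis gene was higher. Of 13 genes tested, 2 rose and 3 fell (5.6% and 6.42% of all genes). Hxk4a (LOC107810082), a hexokinase, went from 11.8, 12.1 and 11.2 CPM to 4.76 and 2.91 CPM (log2 change -1.52 ± 0.19, limma adjusted p = 3e-06). FRK2 (LOC107818999), a fructokinase, went from 22.5, 22.2 and 19.6 CPM to 11.1 and 9.63 CPM (log2 change -1.01 ± 0.17, limma adjusted p = 0.0002). The hexokinase Hxk1 fell by 0.93, without a call when day 9 replicate 2 was left out (adjusted p = 0.077). SPSC (LOC107826329), a sucrose-phosphate synthase, rose from 4.28, 5.02 and 4.13 CPM to 11.1 and 13.3 CPM (log2 change 1.35 ± 0.18, limma adjusted p = 6.9e-06). The hexokinase genes Hxk1a, Hxk3 and Hxk6 changed by -0.14, 0.07 and 0.0035, none of them called. The sucrose synthesis genes SPSA, SPP1 and SPP2 changed by 0.09, 0.07 and 0.19, also without a call. Outside the list, ptpkis1 (LOC107775688), whose Arabidopsis counterpart SEX4 removes phosphate from starch, went from 15.0, 17.1 and 13.3 CPM to 3.97 and 3.06 CPM (log2 change -1.96 ± 0.19, limma adjusted p = 5.9e-08). The second gene that rose in the list, a trehalose-phosphate synthase named from the authors' 4 h table, was called in none of the fits that left out 1 library.

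**Figure D4:**
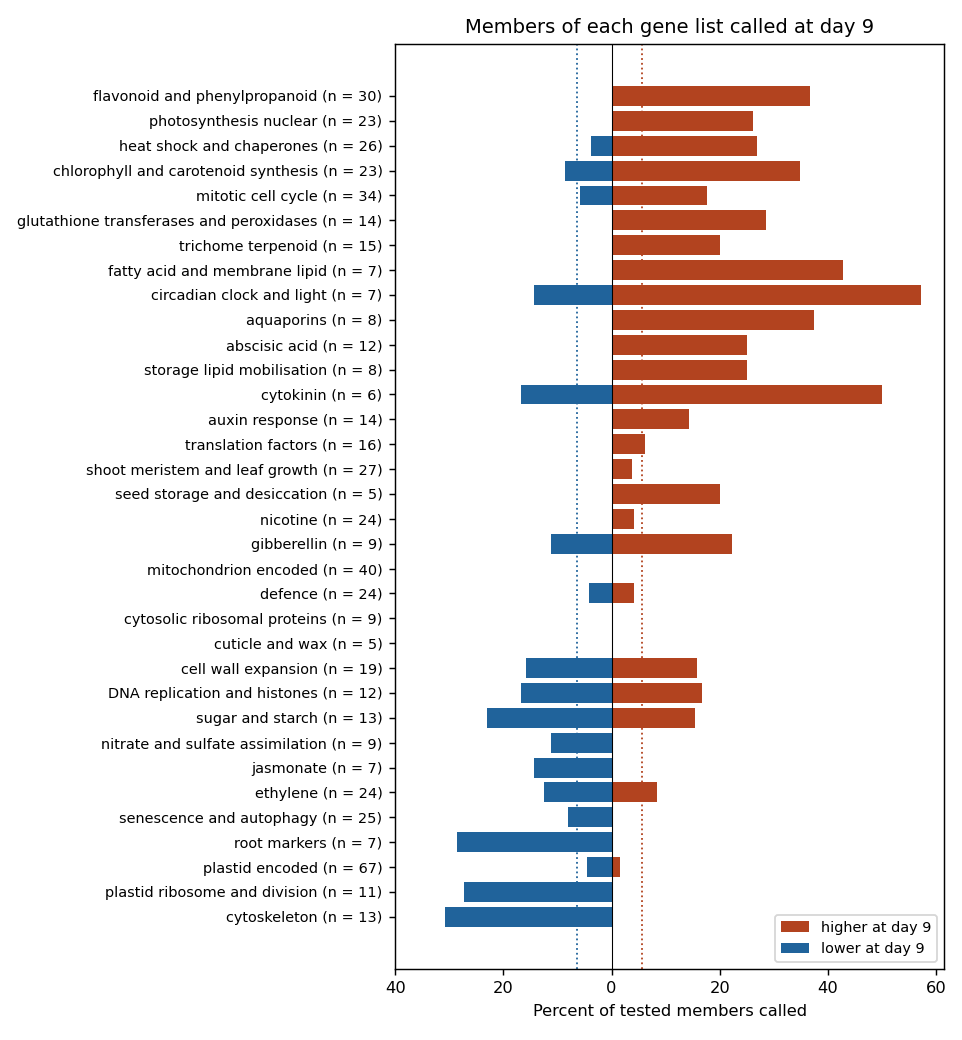
Percent of the tested members of each gene list called higher (orange, right) or lower (blue, left) at day 9, for the lists with at least 5 tested members, n beside each name. Dotted lines mark the share of all tested genes called in each direction, 5.6% higher and 6.42% lower; the phenylpropanoid list has 11 of 30 members higher and none lower, and the cytoskeleton list 4 of 13 lower and none higher.

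Genes of the cytoskeleton that were called fell, and most genes of the mitotic cycle were not called. Of 13 tubulin, actin and profilin genes, 4 fell and none rose, all 4 tubulins, beside 5.6% higher and 6.42% lower of all genes. The median log2 change of the list was 0.003. The β-tubulin gene TUB8 changed by 0.39 and the actin gene act2 by 0.34, neither called. TUA5 (LOC107773558), an α-tubulin, went from 343, 375 and 307 CPM to 192.7 and 136 CPM (log2 change -1.07 ± 0.15, limma adjusted p = 1.4e-05). TUB6 (LOC107802579), a β-tubulin, went from 273, 263 and 307 CPM to 198 and 183 CPM (log2 change -0.56 ± 0.12, limma adjusted p = 0.0021; 0.063 without day 9 replicate 2). The count of 4 became 1 without day 9 replicate 2, 2 without day 9 replicate 1 and 2 without day 7 replicate 3, and 1 member was called higher without day 7 replicate 2 or 3. Of 34 mitotic genes, 6 rose, 2 fell and 26 were not called, with a median log2 change of 0.31. The 6 that rose, among them the cyclin gene CycD3.1 and the cyclin-dependent kinase gene CdkB1-2, changed by 0.52 to 0.67. The 2 falls were called in no fit that left out 1 library, except 1 of them without day 9 replicate 2. The count of rises was 0 without day 9 replicate 2, 2 without day 7 replicate 1, 2 without day 7 replicate 2 and 4 without day 9 replicate 1. Cell wall genes had 3 higher and 3 lower of 19. Of the 3 falls, 2 were in genes named from the authors' tables. Leaving out 1 day 7 library at a time gave 0 to 2 higher and 2 to 3 lower. Of the 9 genes in the list of cytosolic ribosomal proteins, 1 of which (LOC107794394) is described as mitochondrial-like and is a noncoding RNA by its biotype, limma called none, with a median log2 change of 0.03; edgeR called none as well, and 0 of the 9 had an unadjusted p under 0.05.

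Hormone genes changed in both directions. Among 12 genes of abscisic acid, the hormone of water shortage and seed dormancy, 3 rose and none fell, beside 5.6% and 6.42% of all genes, with 1 fall called without day 9 replicate 1. ABF2 (LOC107824387), a bZIP factor that binds abscisic acid response elements, went from 7.48, 4.54 and 11.5 CPM to 28.5 and 23.0 CPM (log2 change 1.74 ± 0.39, limma adjusted p = 0.025). The call was lost without day 7 replicate 1 (adjusted p = 0.067), day 9 replicate 1 (adjusted p = 0.12) or day 9 replicate 2 (adjusted p = 0.11). The other calls were ABA DEFICIENT 4-like, given above, and a PYL2-like receptor that rose by 1.17, both named from the authors' 4 h table. The 2 copies of NCED3, the enzyme of the committed step, varied too much among the day 7 libraries for a call: LOC107827644 held 5.35, 1.16 and 8.76 CPM at day 7 and 24.6 and 15.5 CPM at day 9 (log2 change 2.16 ± 0.81, limma adjusted p = 0.15).

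A gene described as ninja-family protein AFP3-like (LOC107799287), whose Arabidopsis relatives bind the abscisic acid factor ABI5, stood at 1.07, 1.16 and 1.93 CPM at day 7. At day 9 it stood at 23.8 and 11.4 CPM (log2 change 3.20 ± 0.40, limma adjusted p = 0.00035). Its value in the shallow day 7 library corresponds to 1 read, and its name comes from the authors' 48 h table. Of 6 cytokinin genes 3 rose and 1 fell (5.6% and 6.42% of all genes), with no rise called without day 9 replicate 1 and 1 without day 9 replicate 2. The fall was in ARR17-like (LOC107806182), a response regulator of the type that cytokinin induces, named from the authors' 48 h table. This gene went from 7.48, 10.7 and 10.6 CPM to 3.17 and 2.31 CPM (log2 change -1.63 ± 0.20, limma adjusted p = 3e-06). LOG6, an enzyme that activates cytokinins, rose by 0.89, and its call was lost without day 9 replicate 1 (adjusted p = 0.057) or replicate 2 (adjusted p = 0.1). Of 14 auxin genes 2 rose and none fell, and of 9 gibberellin genes 2 rose and 1 fell. Of 24 ethylene genes 2 rose and 3 fell, and of 7 jasmonate genes none rose and 1 fell. Named from the authors' tables were both auxin rises, 1 gibberellin rise, 2 of the ethylene falls and 2 of the 3 cytokinin rises. Leaving out 1 library at a time gave 0 to 2 higher and 0 to 2 lower for auxin, 1 to 2 and 0 to 1 for gibberellin, 0 to 2 and 1 to 4 for ethylene, and 0 to 1 and 0 to 1 for jasmonate.

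Genes of chaperones and heat stress transcription factors rose in part. Of 26 tested, 7 rose and 1 fell (5.6% and 6.42% of all genes), with a median log2 change of 0.07. Of the 7 rises, 2 were in heat stress transcription factor B-2b-like genes (LOC107769826 and LOC107823244). The fall was in a histone H2A.Z-specific chaperone CHZ1-like gene (LOC107808815). These 3 were named from the authors' 48 h table. Hsp70 (LOC107766295) went from 38.5, 56.2 and 47.6 CPM to 83.3 and 155 CPM (log2 change 1.27 ± 0.24, limma adjusted p = 0.0053), its day 9 libraries differing from each other. NtHsp70 (LOC107795135) rose by 0.67 and a dnaJ gene (LOC107763704) by 1.57, the latter not called without day 9 replicate 2 (adjusted p = 0.077). Without day 9 replicate 2 the count that rose was 3, and the count that fell was 2 without day 7 replicate 2 or day 9 replicate 1. Defence genes showed 1 rise and 1 fall among 24, and the rise was lost without day 7 replicate 2 or 3 or day 9 replicate 2. The fall was in rbohD (LOC107823725), the NADPH oxidase that makes superoxide at the plasma membrane in immune responses, which went from 53.5, 60.1 and 68.7 CPM to 14.3 and 16.6 CPM (log2 change -1.94 ± 0.13, limma adjusted p = 1.8e-10). Outside the list, PGIP1 (LOC107786571), an inhibitor of fungal polygalacturonase, went from 21.4, 22.1 and 25.2 CPM to 7.14 and 5.67 CPM (log2 change -1.76 ± 0.16, limma adjusted p = 1.6e-08). Aquaporins had 3 of 8 members higher and none lower. The count was 2 without day 7 replicate 1, 2 without day 7 replicate 2 and 1 without day 9 replicate 2.

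Seed reserve genes, which serve the seedling before it feeds itself, were called in a few cases. Of 8 genes of storage lipid use, 2 rose and none fell, beside 5.6% and 6.42% of all genes: OBL1, an oil body lipase, by 0.73 and PEX5, the peroxisomal import receptor, by 0.51. That count was 0 without day 7 replicate 1 or day 9 replicate 2, 1 without day 7 replicate 2 or day 9 replicate 1, and 3 without day 7 replicate 3. An embryonic protein DC-8-like gene (LOC107832167), named from the authors' 48 h table and of the kind made in drying seeds, went from 3.21, 1.35 and 2.08 CPM to 10.3 and 6.87 CPM (log2 change 1.77 ± 0.29, limma adjusted p = 0.0002). It was the 1 rise among 5 seed storage and desiccation genes, and none fell; without day 7 replicate 1 or 3 there were 2 rises. Senescence and autophagy genes had no rise and 2 falls among 25, with 3 falls without day 9 replicate 1 and 1 without day 9 replicate 2.

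Lists for other tissues are read beside 5.6% of all genes called higher and 6.42% called lower. Both root marker genes that fell, of 7, are described as root phototropism protein 3-like in the authors' 48 h table, a family also active in shoots, while the nitrate and phosphate transporters and the root aquaporin of the list were not called. That pair summed to 28.9 to 33.3 CPM at day 7 and 13.7 to 14.3 CPM at day 9. Of the pair that fell, LOC107829820 was not called without day 9 replicate 1 (adjusted p = 0.054). Nicotine genes, which tobacco uses in roots, had 1 rise among 24, in ADC1A, an arginine decarboxylase of polyamine synthesis. Several of them were high in day 9 replicate 2: the reductase gene A622 held 4.11 CPM there against 0.193 to 2.14 CPM in the other 4 libraries. Without day 9 replicate 1 the list had 4 members higher and without replicate 2 none, and the part of root tissue in this was not tested. Cuticle genes had no call among 5 by limma or edgeR, with 0 at an unadjusted p under 0.05. Meristem and leaf growth genes had 1 rise among 27, in a gene named from the authors' 4 h table. That count was 2 without day 7 replicate 2 or day 9 replicate 1 and 0 without day 9 replicate 2, and 1 fall was called without day 9 replicate 1. Vascular genes had 3 falls among 4, a count of 2 without day 7 replicate 1, 1 without day 7 replicate 3 or day 9 replicate 1, and 0 without day 7 replicate 2 or day 9 replicate 2.

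The largest changes of all were in genes to which the sources used here give no name. LOC107805949 stood at 2.14, 3.33 and 4.55 CPM at day 7 and at 109 and 126 CPM at day 9, a 35.2-fold difference (log2 change 4.99 ± 0.27, limma adjusted p = 4e-07). LOC107825347 stood at 52.4, 63.6 and 54.6 CPM and then at 1.59 and 0.896 CPM, 45.8-fold lower (log2 change -5.07 ± 0.19, limma adjusted p = 1e-14). LOC107818946 changed by -5.24 and LOC107774540 by -5.10, while LOC107816896 and LOC107791352 rose by 4.70 and 4.54. For all 6 the call held in every alternative that was run for single genes. The rule also named genes of other roles. Among the rises, cas (LOC107800572) changed by 2.16 and CIP1 (LOC107817419) by 2.11. IPS (LOC107766502) rose by 2.34 and was called without 1 library only where that library was day 7 replicate 3. ZFT1 (LOC107761653) rose by 2.15, a call lost without day 7 replicate 2 or 3 or day 9 replicate 1 (adjusted p = 0.11, 0.087 and 0.15). Among the falls, SCP1 (LOC107824458) changed by -2.56 and the cytochrome P450 gene CYP81B2 (LOC107798560) by -1.67. Genes described in the authors' 48 h table as RLT3-like (LOC107793383), HAIKU2 (LOC107786953), a receptor-like kinase, and peroxisomal and mitochondrial division factor 2-like (LOC107816865) fell by 2.01, 1.70 and 1.68.

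The same comparison of age can be made in the induced seedlings, which share no library with the non-induced ones. Both sets of calls come from 1 fit and share its estimate of spread. There 3481 genes were higher at day 9 (8.34%) and 3653 lower (8.75%) by limma. Of the 2340 genes higher in non-induced seedlings, 1691 were called higher and 2279 had a positive change in induced seedlings. Of the 2680 lower, 1861 were called lower and 2588 had a negative change, and 15 genes were called in opposite directions. Of the 84 genes named by rule, 62 were called in the same direction in induced seedlings, 21 were not called and 1 was called the opposite way; 78 had the same sign. BCH2 changed there by 2.37, VDE by -2.03, sigA2 by 1.67, rbohD by -2.40 and FAD2 by 1.2 on the log2 scale. The exceptions included LOC107829820, described as root phototropism protein 3-like, at -0.77 in non-induced and 0.47 in induced seedlings. A xylem cysteine proteinase 1-like gene (LOC107804325) changed by -1.15 and 0.32, and a sulfate transporter 1.3-like gene (LOC107793521) by -0.92 and 0.39. Both are named from the authors' 48 h table. The aquaporin gene NIP5;1 (LOC107812546) changed by 0.84 and 0.11. For these genes, unlike LOC107829820, the difference between the 2 changes was not called (limma adjusted p = 0.32, 0.26 and 0.57). Phenylpropanoid genes had 10 higher and 2 lower of 30 in induced seedlings, and plastid-encoded genes 22 higher and 3 lower of 67. A test of the difference between the 2 changes called 66 genes (0.158%).

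**Figure D5:**
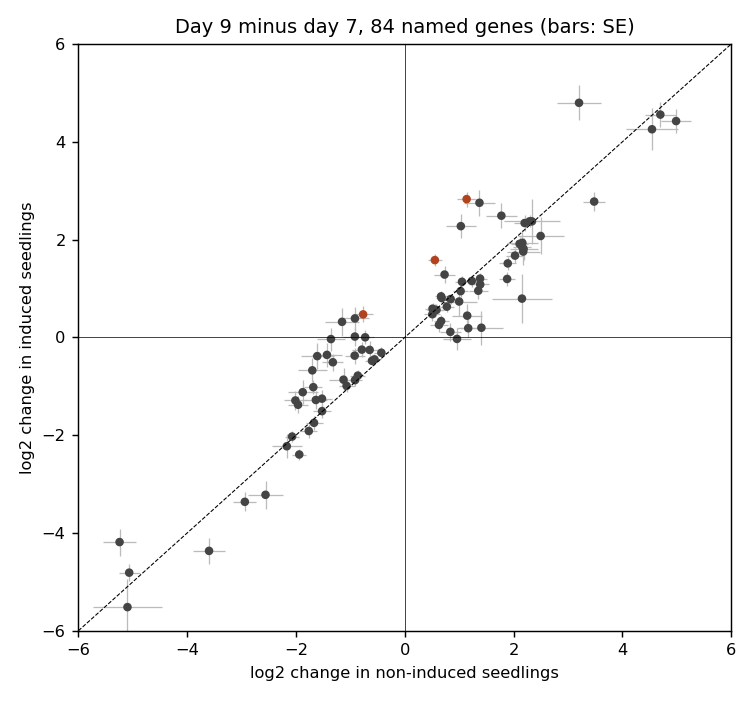
Log2 change between day 7 and day 9 in induced against non-induced seedlings for the 84 genes named by rule (bars are SE, the dashed line marks equality). The horizontal axis runs from -5.24 to 4.99 in the plotted changes, and 78 of the 84 points have the same sign on both axes; the 3 orange points are genes whose changes differed between induced and non-induced seedlings (limma adjusted p under 0.05).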

How the data were processed

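The values were deposited by the authors as normalised read counts, a signal per gene and library in 1 table for each age, with fold changes and p-values that were not used. The submitters' processing notes name edgeR without a version; the sources used here do not name an aligner, a counter, a genome build or an annotation. In every library each value was a whole multiple of the smallest positive value for 100% of genes, within 0.01 of a whole number. Dividing by that value gave whole reads, as counts. Of the counts from 1 to 20, 46.0% and 49.4% were even in the shallow libraries against 68.4% to 74.7% in the others, so the unit recovered may not be the same in both. Entries above 5000 and above 20 times the gene's median over its table were treated as inflated: 4 genes at 4 h and 14 at 48 h were dropped, leaving 42010. There were 2375 genes listed at 4 h alone and 631 at 48 h alone, which were not compared. Another 12 columns of per-sample values in the deposited tables of changed genes were not used; from those tables descriptions alone were taken.

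All 11 distinct libraries were scaled together (TMM, edgeR 4.0.16). Genes with at least 1 CPM in at least 2 libraries were tested on log2(CPM + 0.5) with limma 3.58.1 in R 4.3.3. The model had 1 term for each of the 4 groups, and p-values were adjusted over the 41755 genes. In day 7 replicate 1 a single read gave 1.07 CPM and only 34 genes held 0 reads, so that library removed few genes. A filter of 5 CPM left 28159 genes, of which 4906 were called. Fold changes are on that scale, which understates low genes, while ratios of means are of CPM. In the count test, edgeR called 4511 genes. DESeq2 1.42.0, voom, other scalings, filters and pseudocounts, a replicate block, thinning and leaving out libraries were the alternatives. The code was tested on simulated counts. Names come from RefSeq symbols (assembly ASM71507v2, 37535 genes matched) and the authors' descriptions; coordinates were not used.

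Genes were named by rule: of those with a name, adjusted p under 0.05, a log2 change of at least 1, a mean of at least 5 CPM in the higher group and no overlap, the 15 largest rises and 15 largest falls; the 3 largest of any gene in each direction; and of each list the 2 passing members with the smallest p. The comparison, the lists and the rule were chosen with earlier results of these data known.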

Additional observations from a re-analysis of the deposited data

Results flagged for a closer look

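The change between day 7 and day 9 differed between induced and non-induced seedlings for 66 genes (0.158% of those tested, limma adjusted p under 0.05), by a test of the difference itself. Of these, 44 were more positive and 22 more negative in induced seedlings, and 27 were also called in non-induced seedlings alone. A name was held by 17 of them, 16 through the authors' tables of genes higher in induced seedlings, a choice made on these libraries.

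Among the genes named by rule, 3 were in this group. The heat stress transcription factor B-2b-like gene LOC107823244 rose from a mean of 9.71 to 22.1 CPM in non-induced and from 7.46 to 54.8 CPM in induced seedlings, a difference of 1.69 on the log2 scale (limma adjusted p = 0.0011). For histidine kinase 3-like LOC107821378, of the cytokinin receptor family, the difference was 1.03 (limma adjusted p = 0.011). Root phototropism protein 3-like LOC107829820 fell in non-induced seedlings and rose in induced ones, a difference of 1.24 (limma adjusted p = 0.031). All 3 names come from the authors' 48 h table.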

How the results depend on the processing

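The count of 5020 genes became 31855 on the deposited scale, 2724 with DESeq2, 8489 with the repeated day 9 library counted as 2, 3343 without replicate 1 of both ages, 1082 with every library thinned to the smallest and 2970 with edgeR without replicate 1 of both ages. Leaving out 1 library gave 2238 to 4420. The 66 genes that differed between induced and non-induced seedlings became 42 with voom, 103 with the repeated library counted as 2, 42 without replicate 1 of both ages, 2 with thinning and 32 with edgeR without replicate 1 of both ages, and ranged from 21 to 81 with 1 library left out. The 120 called list members (82 higher, 38 lower) became 400 on the deposited scale, 39 with thinning and 78 with edgeR without replicate 1 of both ages, and ranged from 55 to 113. The causes were not tested, though thinning leaves fewer reads by construction. The deposited scale centred on its median, the block with the repeated library as number 2 and edgeR without replicate 1 were added after the data were seen.

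The ages share 2 replicate numbers among the distinct non-induced libraries. Deviations from the group means correlated at 0.298 for the pair numbered 1 and 0.0352 for the pair numbered 2. With 2 libraries at day 9 their deviations mirror each other, so these values do not settle whether the numbers pair the libraries, and no label says that they do. A replicate block gave 5463 genes in place of 5020 and 132 in place of 66, or 202 with the repeated library as number 2.

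Of the 84 named genes, 39 kept direction and call in every alternative run for single genes and 45 lost the call in at least 1. The deposited scale without centring was not among the alternatives run for single genes. With thinning, AOS changed by 0.44 and GID1B-like by -0.41, each opposite to its reported sign. GID1B-like is named from the authors' 48 h table. Depth limits genes below about 1 CPM, where 1 read in the shallow libraries sets the value. Only 34 genes held 0 reads in the shallow day 7 library and 13 in the shallow day 9 library. A low gene can therefore stand higher there than in the deep libraries. At day 7, parB held 1.07 CPM in the shallow library against 0.0966 and 0.231 CPM in replicates 2 and 3. The reason was not tested.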

Other observations

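Several genes of water stress differed among the day 7 libraries, with replicate 2 the lowest. An ATHB-12-like homeobox gene (LOC107765920) held 5.35, 1.35 and 13.5 CPM at day 7 and 30.9 and 22.8 CPM at day 9 (log2 change 2.35 ± 0.93, limma adjusted p = 0.18). An NAC domain 72-like gene (LOC107765862) held 37.4, 13.0 and 45.9 CPM and then 74.5 and 47.0 CPM. Both names come from the authors' 48 h table. nia-1 (LOC107823732), a nitrate reductase gene, held 162, 119 and 97.3 CPM at day 7 and 514 and 155 CPM at day 9 (log2 change 1.19 ± 0.61, limma adjusted p = 0.3).

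Genes listed at 1 age alone were mostly low. Of the 2375 genes only in the 4 h table, 18 had a mean value of at least 5 over the non-induced libraries, and of the 631 only in the 48 h table, 1 did.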
